A study of Hermetia illucens with 24 samples.

Results

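The genes described here are 150 genes of the black soldier fly *Hermetia illucens* whose RNA was most abundant at 24 h in larvae on control feed, lower both before and after. They were chosen from 15129 scored genes. A gene's score was its mean log2(CPM + 1) in control larvae at 24 h minus the higher of its means in control larvae at 6 h and at 72 h, where CPM is a gene's count scaled to the total of its library. A score of at least 1 was reached by 353 genes, and the 150 with the highest scores were kept, from 1.57 to 4.29 with a median of 2.26. Control values thus chose the genes, and every control value below is a description with no test. Larvae on AFB1 feed had no part in the choice. In larvae on AFB1 feed most of the 150 genes were already abundant at 6 h and were scarce at 72 h. Of 133 tested, 71 were called higher at 24 h than at 72 h, against 11.5% of all genes tested.

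The study fed larvae that were 5 days old either chicken feed spiked with AFB1 or the same kind of feed without it, and collected them after 6, 24 and 72 h. AFB1 is aflatoxin B1, a toxin made by *Aspergillus* moulds that grow on grain, and its dose was not used here. The groups were, in time order, AFB1 6 h, AFB1 24 h and AFB1 72 h, set against control 6 h, control 24 h and control 72 h. Each of the 6 groups had 4 libraries, each from total RNA of whole larvae pooled in pairs (2 larvae), and the larvae were not dissected. The labels do not say whether pools came from separate rearing containers, so p-values measure only the spread between these pools. In such whole-body RNA, fewer cells of a type and less RNA per cell cannot be told apart.

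Insect larvae grow through a series of moults. Pulses of the moulting hormone ecdysone, and the changes between feeding and fasting that go with a moult, switch groups of insect genes on for a short time, so that RNA of a gene can be abundant at one age and scarce soon before and after it. Aflatoxin B1 is activated in animals by cytochrome P450 enzymes to a form that binds DNA. These statements are general background. The 150 genes carry LOC numbers without product names in the sources used here, so no function is given for any of them, and they are ordered below by abundance, by score and by their place beside each other on the chromosomes.

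Libraries held 6826454 to 27136702 counts. LOC119646963, which is not one of the 150 genes and was left out of all levels and tests, took 7.12% to 81.1% of them, and 1711314 to 24355059 counts were left for other genes. It took 27.4%, 42.8%, 74.2% and 81.1% of AFB1 24 h replicates 1 to 4, which left replicates 3 and 4 only 2097793 and 1711314 counts. The 4 control 72 h libraries were unusually alike. Pairs of them differed at 10.2% to 29.4% of genes in an exact binomial test of their counts (p under 0.05), against 39.6% to 79.8% in pairs of the other 5 groups, so control 72 h values are given by library and not as an error.

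The order of 6 and 24 h on AFB1 feed rested on few libraries, as given below. In library medians, the 150 genes showed no peak at 24 h on AFB1 feed. Their median log2(CPM + 1) was 5.89, 6.68, 4.28 and 5.23 in the AFB1 6 h libraries, 5.45, 4.94, 2.64 and 1.97 in the AFB1 24 h libraries and 1.20, 1.76, 1.07 and 1.07 in the AFB1 72 h libraries. The medians of 6 and 24 h overlapped and all lay above those of 72 h, and the lowest at 24 h belonged to replicates 3 and 4. Over all genes with counts the library medians stayed between 2.12 and 3.56 in the AFB1 libraries. As a share of the counts left without LOC119646963, the 150 genes took 5.66%, 5.06%, 5% and 3.24% in the AFB1 6 h libraries, 4.75%, 3.89%, 2.69% and 1.31% in the AFB1 24 h libraries and 0.445% to 0.64% in the AFB1 72 h libraries. In control libraries they took 0.368% to 2.16% at 6 h, 3.56% to 5.21% at 24 h and 0.466% to 0.541% at 72 h. The share at 6 h on AFB1 feed thus lay in or near the range that control larvae had at 24 h. Such a share is weighted to the most abundant genes: LOC119649867 alone had 24860 CPM in AFB1 6 h replicate 3. Of the AFB1 6 h library medians, only that of replicate 2 lay within the range of the control 24 h medians, 5.98 to 6.88.

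In control larvae, by the rule of choice, the same genes traced a narrow peak. Their median log2(CPM + 1) was 4.77, 1.77, 3.31 and 4.71 in the control 6 h libraries, 6.88, 6.56, 6.32 and 5.98 in the control 24 h libraries and 3.05, 3.09, 3.15 and 2.97 in the control 72 h libraries. On the CPM scale, the median of the group means was 23.9 CPM at 6 h, 94 CPM at 24 h and 7.83 CPM at 72 h. The control libraries of 24 h all lay above those of 72 h for 136 of the 150 genes (11.1% of all genes with a count). They all lay above those of 6 h for 40 (3.28%). Both counts follow from the choice of the genes on these values. The control 6 h libraries were unequal. The genes' highest 6 h value was in replicate 1 for 68 genes, in replicate 3 for 42, in replicate 4 for 38 and in replicate 2 for 2. That was 45.3%, 28%, 25.3% and 1.33% of the 150 genes, against 34.1%, 23.2%, 26.5% and 16.1% of all genes with a count.

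**Figure D1:**
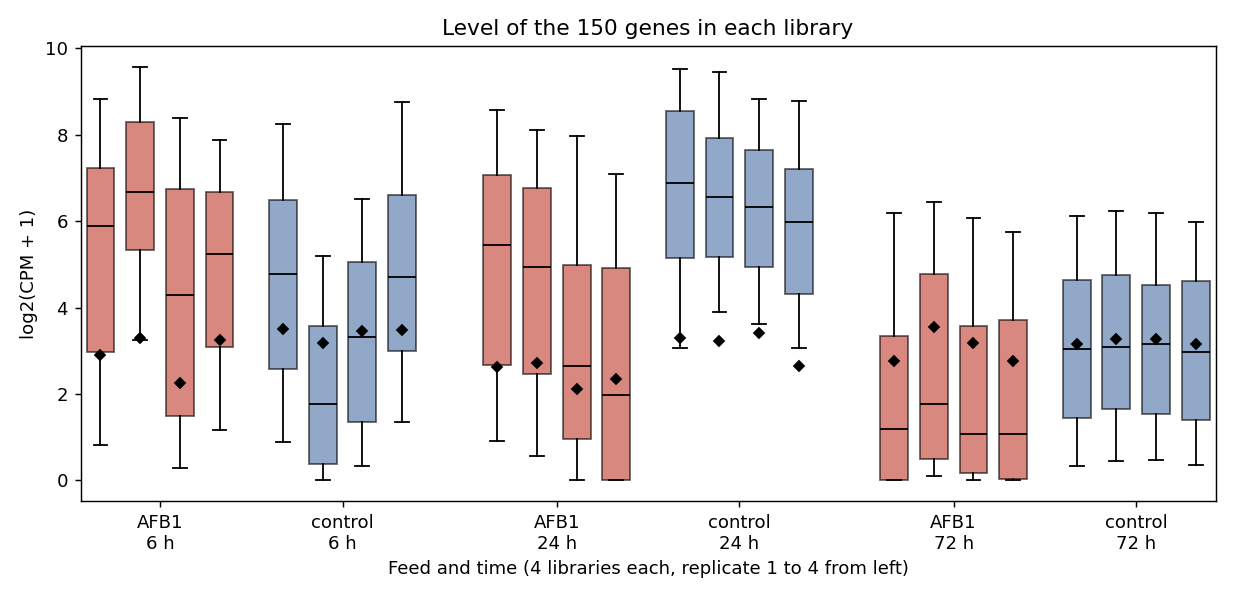
Levels of the 150 genes in each of the 24 libraries, as log2(CPM + 1), with AFB1 (red) left of control (blue) at each time. Boxes span the quartiles with the median as a line, whiskers the 10th to 90th percentiles, and diamonds mark the median over all genes with counts; the AFB1 medians run from 4.28 to 6.68 at 6 h and from 1.07 to 1.76 at 72 h, while the control medians are highest at 24 h, from 5.98 to 6.88.

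On AFB1 feed the genes were higher at 24 h than at 72 h. The 150 genes differed by a median of 1.78 in mean log2(CPM + 1), with quartiles of 0.34 and 3.14, and 124 of them were higher, against a median of −0.14 over all 13465 genes with a count. In edgeR's quasi-likelihood test, 133 of the 150 genes had enough counts to be tested, 71 were called higher at 24 h than at 72 h at an adjusted p under 0.05, and 0 were called lower. Of all 9480 genes tested, 11.5% were called higher and 12.2% lower. DESeq2 called 81 of the 150 genes higher and 0 lower (15.4% and 17.2% of all genes), and limma voom called 60 higher and 0 lower (10.3% and 7.19% of all genes). With no filter on low counts, 60 were called higher (6.74% of all genes) and 0 lower (7.66%). Values of the 4 libraries at 24 h all lay above those of the 4 at 72 h for 32 of the 150 genes (6.71% of all genes), and all below for 0 (14.6% of all genes). Without AFB1 24 h replicates 3 and 4, 49 were called higher (1.96% of all genes tested), and without AFB1 72 h replicate 3 or 4 alone, 47 and 46 were (3.8% of all genes tested in each).

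The comparison of 72 h with 6 h gave the same number of calls. The 150 genes were lower at 72 h by a median of 2.72 (difference −2.72 in mean log2(CPM + 1), quartiles −4.47 and −1.52), and 145 were lower, against a median of 0.03 over all genes with a count. In edgeR's test 71 were called lower at 72 h than at 6 h and 0 higher, against 2.29% of all genes tested called lower and 1.62% higher. DESeq2 called 90 lower and 0 higher (5.23% and 3.78% of all genes), and limma voom called 47 lower and 0 higher (1.52% and 0.97% of all genes). With no filter on low counts, 47 were called lower (1.04% of all genes) and 0 higher (0.754%). The 4 libraries at 72 h all lay below the 4 at 6 h for 78 of the 150 genes (3.59% of all genes), and all above for 0 (3.22%). Without AFB1 6 h replicate 2, 47 were called lower (1.65% of all genes tested). Without AFB1 72 h replicate 1, 3 or 4 alone, 46, 34 and 46 were (1.28%, 0.752% and 1.09%). Without AFB1 24 h replicates 3 and 4 together, 66 were (2.46%). In all, 57 genes were called in both comparisons, 14 only in the comparison of 24 h with 72 h, 14 only in that of 72 h with 6 h, and 48 of those tested in neither. Both comparisons use the same AFB1 72 h libraries. These joint counts were not taken over all genes tested, so they are descriptions only.

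Between 24 h and 6 h on AFB1 feed no difference passed edgeR's test in the fit of all 12 AFB1 libraries. Some alternative fits called a small part of the 150 genes. The 150 genes had a median difference of −1.45 in mean log2(CPM + 1), 24 h minus 6 h, with 126 below 0 and 23 above it, where all genes with a count had a median of −0.11. edgeR called 0 of the 150 genes and 0% of all genes tested in either direction. At an unadjusted p under 0.05, 25 of the 133 tested were lower at 24 h and 1 was higher (12.4% and 9.1% of all genes tested), and the lowest adjusted p was 0.149. Same-numbered libraries of these 2 groups deviated together. With the replicate number as a block in a fit of these 8 libraries, an alternative chosen after the data were seen, edgeR called 18 of 126 tested lower at 24 h and 0 higher, against 1.83% and 1.86% of all genes. The log2 fold changes of the 18 ran from −4.70 to −2.15, and their adjusted p, from 0.0458 to 0.0488, lay just under the threshold. They include LOC119647717 and LOC119648182 and, of the longest run of neighbours, LOC119647718, LOC119648944, LOC119649190, LOC119649142 and LOC119649197. With the block in the fit of all 12 AFB1 libraries, edgeR called 0. limma voom also called 0. The 4 libraries at 24 h all lay below the 4 at 6 h for 6 of the 150 genes (1.8% of all genes), and all above for 0 (1.75%). DESeq2 called 9 lower and 0 higher (3.93% and 2.24% of all genes), and without AFB1 6 h replicate 3 edgeR called 15 lower and 1 higher (9.31% and 8.46% of all genes). The size of the median difference rested on few libraries: it was −0.29 without AFB1 24 h replicates 3 and 4, and 0.07 when AFB1 6 h replicate 2 was left out as well. Those replicates of 24 h are the libraries with the largest shares of LOC119646963, and its part in the difference was not tested.

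**Figure D2:**
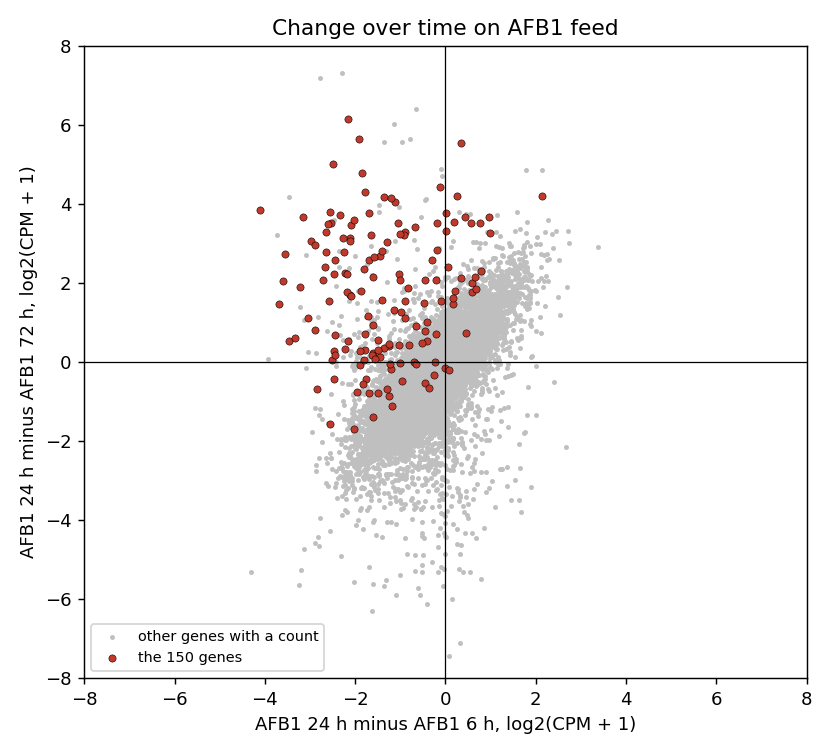
Each point is a gene; the horizontal axis is its mean log2(CPM + 1) in AFB1 24 h minus AFB1 6 h libraries and the vertical axis that in AFB1 24 h minus AFB1 72 h libraries. The 150 genes (red) lie mostly in the upper left, with 126 below 0 on the horizontal and 124 above 0 on the vertical axis, while other genes (grey) centre near 0 on both; 1 grey gene lies outside the axes.

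Applied to the AFB1 libraries, the score by which the genes were chosen reached 1 for 1 of the 150 genes (0.667%), LOC119654948, against 3.15% of all genes with a count. The highest AFB1 mean was at 6 h for 123 of the 150 genes (32% of all genes with a count), at 24 h for 22 (22.6% of all) and at 72 h for 5 (45.4% of all). Means were lower at each later time for 102 of the 150 genes and for 8.88% of all. Without AFB1 24 h replicates 3 and 4 the highest mean was at 6 h for 99 genes (27.7% of all) and at 24 h for 46 (27.1%). With AFB1 6 h replicate 2 left out too, it was at 6 h for 63 (24.4% of all), at 24 h for 77 (26.9%) and at 72 h for 10 (48.8%). The score then reached 1 for 9 of the 150 genes (0.683% of all). The step between 6 and 24 h thus changed direction with these 3 libraries, whereas the low level at 72 h did not. The AFB1 mean at 72 h was at least 1 below that at 6 h for 128 of the 150 genes (5.76% of all). It was so for 115 without AFB1 6 h replicate 2 (6.1% of all).

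**Figure D3:**
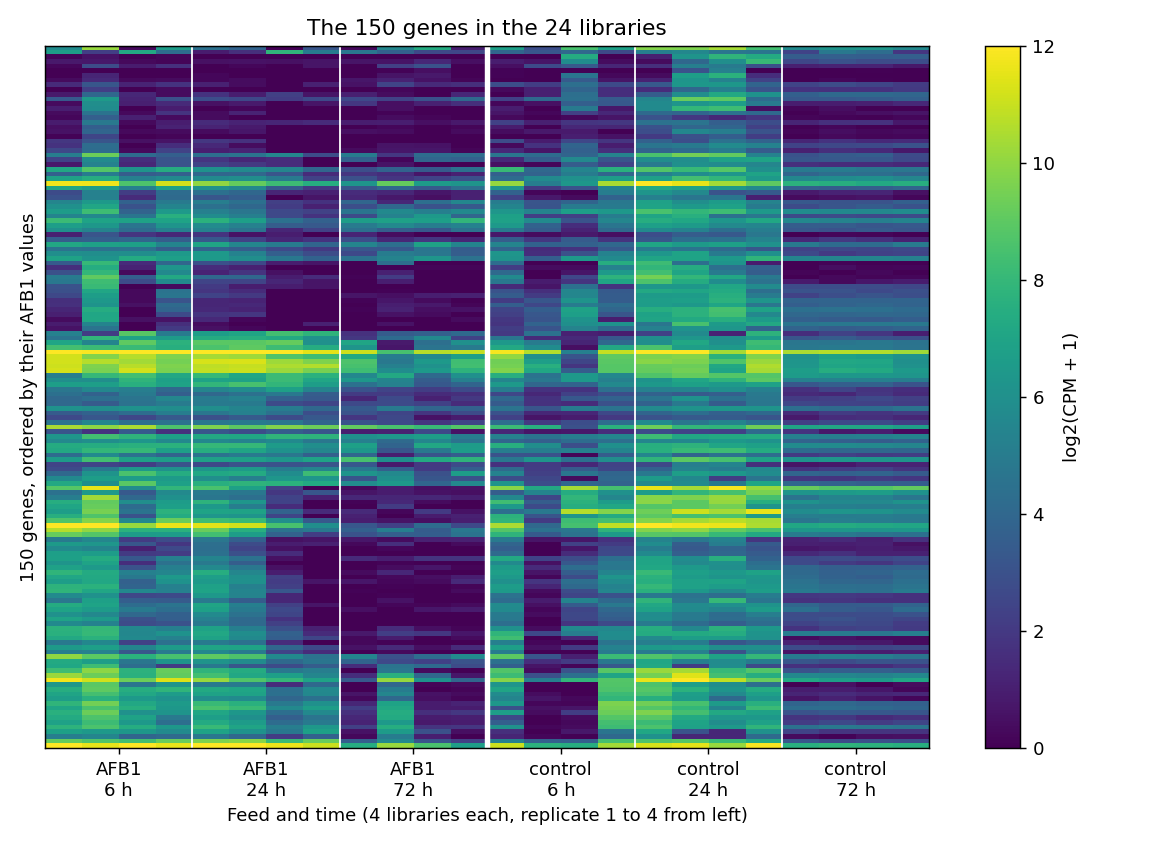
Heat map of log2(CPM + 1) for the 150 genes (rows, ordered by likeness of their AFB1 values) in the 24 libraries (columns, AFB1 left of control, 6 to 72 h within each). The control 24 h columns are on the whole the brightest of the control columns, the AFB1 72 h columns are dark for most, and AFB1 6 h replicate 2 is the brightest AFB1 column for 82 of the 150 genes.

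Set against control larvae of the same time, the 150 genes were higher on AFB1 feed at 6 h, lower at 24 h and mixed at 72 h. These are descriptions, since the control side was chosen to be high at 24 h and low at the other times. At 6 h the median difference, AFB1 minus control, was 1.74 in mean log2(CPM + 1), 124 genes were higher, and for 25 all AFB1 libraries lay above all control libraries (3.25% of all genes), while for 0 they all lay below (9.48%). The median was 1.41 without AFB1 6 h replicate 2. At 24 h the median difference was −2.19, 127 genes were lower, and for 51 all AFB1 libraries lay below all control libraries (7.83% of all genes). Without AFB1 24 h replicates 3 and 4 the median difference was −0.79, and for 54 genes both AFB1 libraries lay below all control libraries (11.1% of all genes). At 72 h the median difference was −0.29, with quartiles of −2.11 and 0.44. For 53 genes all AFB1 72 h libraries lay below the control 72 h libraries (7.76% of all genes), and for 7 all lay above (8.44% of all genes). In mean log2(CPM + 1), 57 genes were at least 1 lower on AFB1 feed at 72 h and 18 at least 1 higher. The alike control 72 h libraries may be repeats of 1 sample, so these differences at 72 h, and those of single genes below, may rest on 1 control sample. With their counts summed to 1 library, the AFB1 72 h libraries all lay below it for 61 genes (14.9% of all genes) and all above for 11 (13.2%).

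The most abundant of the 150 genes in control 24 h libraries were LOC119649867, LOC119648889 and LOC119647717. LOC119648889 had 4015, 4172, 1120 and 3115 CPM in AFB1 6 h libraries, 2843, 2321, 359 and 59.6 CPM in AFB1 24 h libraries and 8.49, 3.93, 18.2 and 5.17 CPM in AFB1 72 h libraries. All AFB1 libraries of 6 and 24 h lay above all of 72 h. In control larvae it had 1422, 15.8, 356 and 1847 CPM at 6 h, 4221, 3378, 3214 and 1456 CPM at 24 h and 141, 165, 148 and 134 CPM at 72 h. On AFB1 feed it was higher at 24 h than at 72 h by a log2 fold change of 7.48 (SE 1.11, edgeR adjusted p = 0.00317), and lower at 72 h than at 6 h by a log2 fold change of −8.40 (SE 1.16, edgeR adjusted p = 0.00263). Both calls held under the 22 alternatives tried. The 72 h libraries of both feeds did not overlap: 3.93 to 18.2 CPM on AFB1 feed stood against 134 to 165 CPM in controls.

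LOC119649867 lies directly beside LOC119648889 and was more abundant on AFB1 feed. It had 15269, 3847, 24860 and 7950 CPM in AFB1 6 h libraries, 14745, 12632, 12893 and 2897 CPM in AFB1 24 h libraries and 2200, 362, 1698 and 1911 CPM in AFB1 72 h libraries. In control larvae it had 3696, 1555, 37 and 1974 CPM at 6 h, 4439, 6123, 1334 and 9540 CPM at 24 h and 1430, 1615, 1545 and 1255 CPM at 72 h. Unlike its neighbour, it was at about the same level on both feeds at 72 h, where the ranges overlapped. On AFB1 feed its log2 fold change was 3.02 for 24 h against 72 h (SE 0.84, edgeR adjusted p = 0.025) and −3.23 for 72 h against 6 h (SE 0.85, edgeR adjusted p = 0.05, just under the threshold). The second call was lost under 17 of 22 alternatives, with edgeR, DESeq2 or limma adjusted p up to 0.139, and the first under 6 of 22, with adjusted p up to 0.0827.

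LOC119647717 had 3470, 2265, 641 and 2635 CPM in AFB1 6 h libraries, 1124, 431, 251 and 125 CPM in AFB1 24 h libraries and 9.35, 1081, 67.6 and 14.4 CPM in AFB1 72 h libraries. Replicate 2 stood far above the other 3 at 72 h, and none of the comparisons over time passed edgeR's test without the block (adjusted p = 0.161 for 72 h against 6 h). Control larvae had 907, 35.7, 238 and 448 CPM at 6 h, 3148, 6044, 1859 and 618 CPM at 24 h and 148, 105, 92.2 and 136 CPM at 72 h.

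The genes of highest score were LOC119648449 (4.29), LOC119648868 (4.16), LOC119648944 (4.05) and LOC119651106 (3.99). LOC119648868 had 34.6, 1234, 15.7 and 64.4 CPM in AFB1 6 h libraries, 25.4, 20.2, 4.29 and 1.17 CPM in AFB1 24 h libraries and 1.54, 1.47, 1.55 and 1.03 CPM in AFB1 72 h libraries, against 47.7, 4.66, 239 and 44.5 CPM at 6 h, 928, 816, 1177 and 347 CPM at 24 h and 22.8, 40.8, 38.7 and 25.5 CPM at 72 h in control larvae. At 24 h and at 72 h every AFB1 library lay below every control library. On AFB1 feed it was lower at 72 h than at 6 h by a log2 fold change of −7.75 (SE 1.45, edgeR adjusted p = 0.013). That change ran from −8.14 to −4.75 over the alternatives, and the gene was called in each of the 21 that gave an adjusted p. The comparison of 24 h with 72 h gave a log2 fold change of 3.46 and missed the threshold (SE 1.22, edgeR adjusted p = 0.0549).

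LOC119648944 had 307, 997, 207 and 589 CPM in AFB1 6 h libraries, 223, 166, 27.2 and 34.5 CPM in AFB1 24 h libraries and 0, 25.9, 0.258 and 0 CPM in AFB1 72 h libraries. All 24 h libraries lay above the 72 h libraries and below the lowest of 6 h except replicate 1. Its log2 fold changes were 4.67 for 24 h against 72 h (SE 1.51, edgeR adjusted p = 0.0414) and −6.61 for 72 h against 6 h (SE 1.66, edgeR adjusted p = 0.0443). Each call was lost under 14 of 22 alternatives, with adjusted p up to 0.102 and 0.104.

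LOC119648449 and LOC119651106 passed no test on AFB1 feed. LOC119648449 had 163, 402, 120 and 27.5 CPM in AFB1 6 h libraries, 106, 62.8, 11.4 and 23.4 CPM in AFB1 24 h libraries and 1.54, 161, 0.904 and 1.03 CPM in AFB1 72 h libraries, so that replicate 2 of 72 h alone was high. In control larvae it had 4.99, 0, 0.26 and 442 CPM at 6 h, 471, 153, 79 and 83.4 CPM at 24 h and 2.53, 2.8, 1.73 and 2.16 CPM at 72 h. LOC119651106 reached 60.9 CPM in 1 library, AFB1 6 h replicate 2, and stayed at 0 to 2.8 CPM in the 11 others, against 29.7 to 104 CPM in control 24 h libraries.

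**Figure D4:**
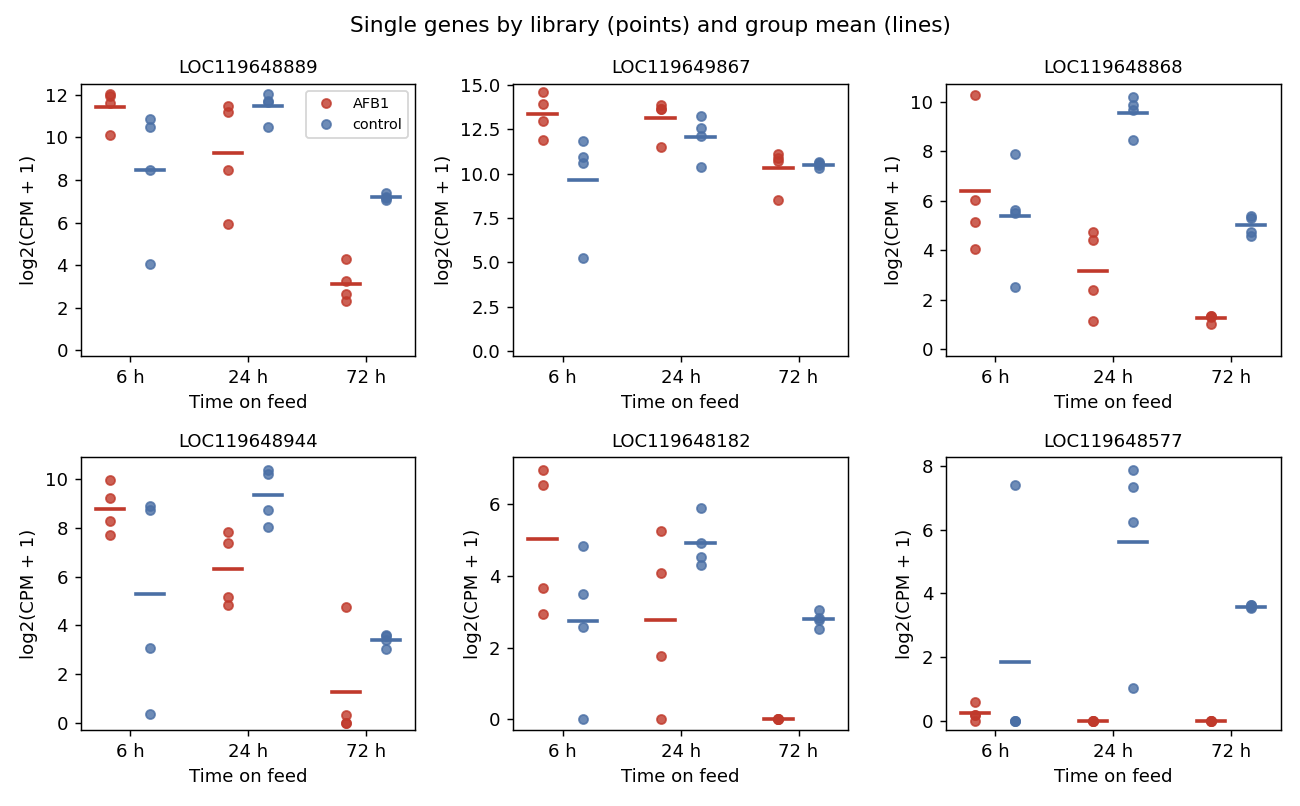
Levels of 6 genes, as log2(CPM + 1), by time on AFB1 feed (red, left) and control feed (blue, right); points are libraries and lines group means. LOC119648889 differs by feed at 72 h (3.93 to 18.2 CPM against 134 to 165 CPM), LOC119648182 is at 0 in all 4 AFB1 72 h libraries, and LOC119648577 is at 0 in all AFB1 24 h and 72 h libraries.

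The largest changes among called genes of at least 1 mean log2 CPM were those of LOC119648182, LOC119647938 and LOC119647037, which were listed at 0 counts in all 4 AFB1 72 h libraries. LOC119648182 had 123, 92.2, 6.63 and 11.6 CPM in AFB1 6 h libraries and 37.3, 15.9, 2.38 and 0 CPM in AFB1 24 h libraries, whereas control 72 h libraries still had 6.13, 7.3, 5.77 and 4.75 CPM. On counts summed over libraries, with a floor of 3 counts for AFB1 72 h, it was at least 270-fold higher at 24 h and 1115-fold at 6 h. Such floors cover counting error only and not the spread between libraries. edgeR's log2 fold change was 10.27 for 24 h against 72 h (SE 2.13, edgeR adjusted p = 0.0137). For 72 h against 6 h it was −12.05 (SE 2.14, edgeR adjusted p = 0.0154). LOC119647938 had 11.8 to 67 CPM in AFB1 6 h libraries and 52.7, 22.3, 4.77 and 0 CPM in AFB1 24 h libraries. By the same floor it was at least 383-fold higher at 24 h and 622-fold higher at 6 h than at 72 h. Its log2 fold change was 10.77 for 24 h against 72 h (SE 1.88, edgeR adjusted p = 0.00887). For 72 h against 6 h it was −11.39 (SE 1.88, edgeR adjusted p = 0.0127). LOC119647037 had 110, 97, 3.09 and 3.44 CPM in AFB1 6 h libraries and 20.3, 6.67, 1.91 and 0 CPM in AFB1 24 h libraries. By that floor it was at least 138-fold higher at 24 h and 1044-fold higher at 6 h than at 72 h. Its log2 fold change was 9.38 for 24 h against 72 h (SE 2.29, edgeR adjusted p = 0.0212). For 72 h against 6 h it was −11.91 (SE 2.27, edgeR adjusted p = 0.0208). In each of these genes AFB1 24 h replicate 4, the library with the fewest counts, held none. Of their 6 calls, those of LOC119647938 held under every alternative that gave a value. LOC119648182 lost its call for 72 h against 6 h without AFB1 6 h replicate 2 and with no filter on low counts (edgeR adjusted p up to 0.0585), and LOC119647037 lost its calls under 4 of 21 and 8 of 22 alternatives (adjusted p up to 0.0784 and 0.0773).

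These 3 genes lie in a run of 10 neighbouring genes among the 150, which was looked at after its values were seen. The neighbours, in order along the chromosome, are LOC119648054, LOC119648119, LOC119647938, LOC119648182, LOC119648251, LOC119648000, LOC119659409, LOC119659272, LOC119659553 and LOC119647037. All 10 were called higher at 24 h than at 72 h and lower at 72 h than at 6 h on AFB1 feed by edgeR. Of all genes tested, 11.5% and 2.29% were called so. The median of their mean CPM was 62.6 at 6 h, 33.9 at 24 h and 0.0366 at 72 h on AFB1 feed, and 15 at 6 h, 55.8 at 24 h and 9.1 at 72 h in control larvae. If neighbours are near-identical copies, their reads may have been shared out among them when counted, so the 10 may not be 10 separate measurements.

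Neighbourhood was common among the 150 genes. In NCBI RefSeq's gene order for the assembly iHerIll2.2, in which all 150 were found, 75 had another of the 150 as their direct neighbour, in 23 runs. Of these runs 16 were pairs, 2 were of 3 genes and 5 were of 4 or more, which held 37 genes. Of the 75 genes in runs, 41 were called higher at 24 h than at 72 h and 49 lower at 72 h than at 6 h on AFB1 feed, and of the 75 others 30 and 22 were. Enough counts to be tested were held by 71 genes in runs and by 62 of the others, and over all genes tested 11.5% and 2.29% were called. The difference between these counts was not tested.

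The longest run held 11 genes: LOC119647718, LOC119649069, LOC119649032, LOC119648908, LOC119649767, LOC119649038, LOC119648944, LOC119649190, LOC119649142, LOC119649203 and LOC119649197. Their mean CPM had a median of 113 at 6 h, 9.64 at 24 h and 1.3 at 72 h on AFB1 feed, and of 67.6 at 6 h, 156 at 24 h and 0.637 at 72 h in control larvae. Of the 10 that had enough counts, edgeR called 4 higher at 24 h than at 72 h (11.5% of all genes tested), namely LOC119649032, LOC119649767, LOC119648944 and LOC119649142. It called 7 lower at 72 h than at 6 h (2.29% of all genes tested), which were the same 4 with LOC119649190, LOC119649203 and LOC119649197. Most of these calls depended on the setting. For 24 h against 72 h, the call was lost under 8 of 22 alternatives for LOC119649032, 4 of 22 for LOC119649767 and 12 of 21 for LOC119649142, with edgeR or limma adjusted p up to 0.0918, 0.063 and 0.101. For 72 h against 6 h, it was lost under 12 of 22 for LOC119649032, 10 of 22 for LOC119649767, 8 of 22 for LOC119649190, 3 of 22 for LOC119649197 and 1 of 22 for LOC119649203, with edgeR or limma adjusted p up to 0.0904, 0.109, 0.173, 0.0565 and 0.127. LOC119649142 had 27.1, 307, 5.74 and 54.5 CPM in AFB1 6 h libraries, 4.55, 4.55, 1.43 and 0.584 CPM in AFB1 24 h libraries and 0, 0.982, 0 and 0 CPM in AFB1 72 h libraries, with a log2 fold change of −8.40 for 72 h against 6 h (SE 1.37, edgeR adjusted p = 0.00771, called under all 22 alternatives). At 24 h the run held less RNA on AFB1 feed than in controls: LOC119649197 had 15.4, 15.1, 0.953 and 1.75 CPM in AFB1 24 h libraries, against 728, 245, 148 and 28.3 CPM in control 24 h libraries, and LOC119649190 had 0 to 2.44 CPM against 10.7 to 326 CPM.

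Within the run the genes were not alike in every group. LOC119649069 and LOC119648908 kept more RNA at 24 h on AFB1 feed, at 157, 131, 20 and 49.1 CPM and at 119, 119, 20.5 and 47.3 CPM, and missed the threshold in both comparisons (edgeR adjusted p = 0.0624 and 0.0784 for the first, 0.0655 and 0.0844 for the second). In AFB1 72 h replicate 2 they had 31.5 and 43.9 CPM, while the other 3 libraries had at most 0.129 and 0.579 CPM. LOC119647718 missed it as well (adjusted p = 0.118 and 0.0525), with 14.4 CPM in that library and at most 0.259 CPM in the others. On AFB1 feed LOC119649038 reached 42.1 CPM in 6 h replicate 2 but no more than 2.06 CPM in any of the 11 others, and in controls it still had 23.5 to 28.3 CPM at 72 h, where its neighbours other than LOC119648944 had at most 1.92 CPM.

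**Figure D5:**
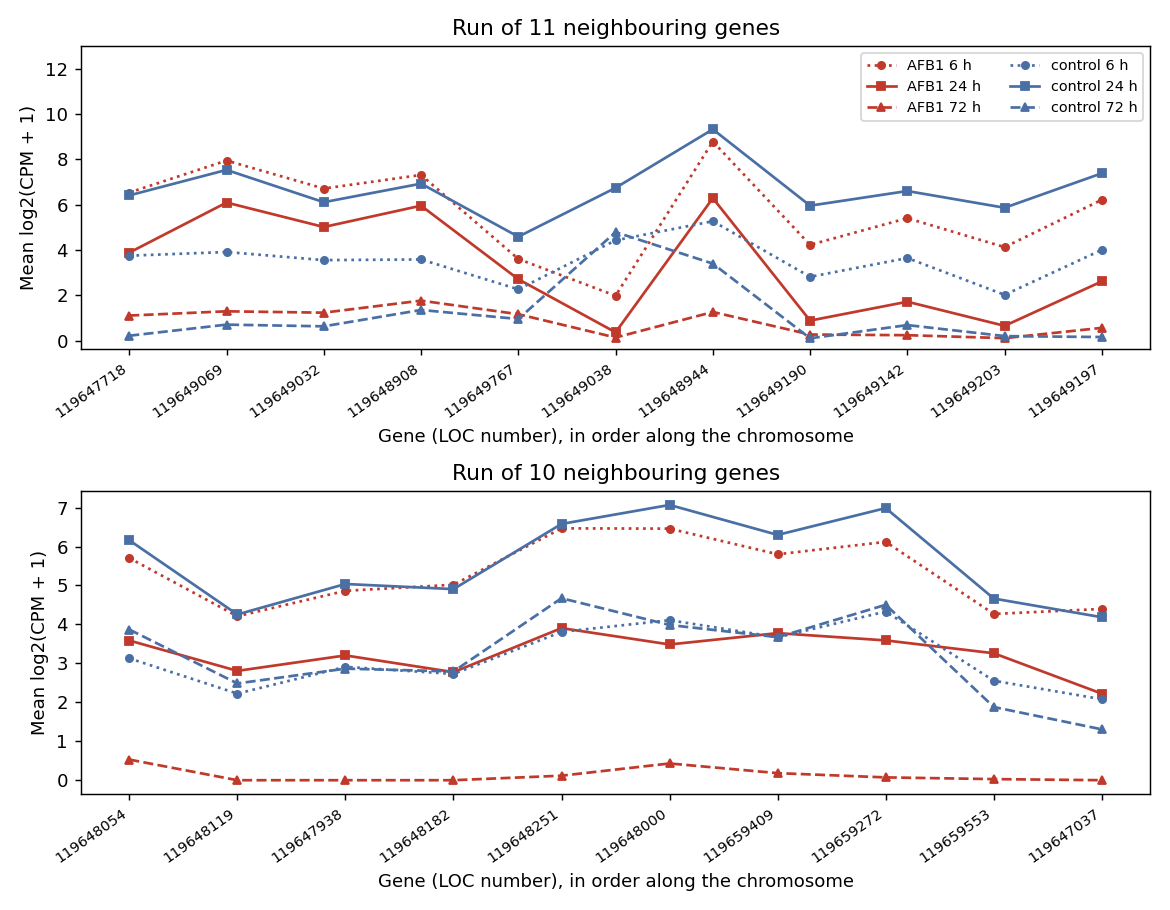
Mean log2(CPM + 1) over 4 libraries for the run of 11 (top) and the run of 10 (bottom) neighbouring genes, in order along the chromosome; red lines are AFB1 and blue lines control, and line and marker types give the time. In the lower panel all 10 genes lie near 0 at AFB1 72 h only, and in the upper panel both 72 h lines lie low for most genes, except LOC119649038 and LOC119648944 in controls.

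Among the other runs of 4 or more, that of 7 genes held LOC119648449 with LOC119648735, LOC119650074, LOC119648448, LOC119650075, LOC119649083 and LOC119648450. edgeR called 0 of them higher at 24 h than at 72 h (11.5% of all genes tested) and 1 lower at 72 h than at 6 h (2.29%). AFB1 72 h replicate 2 again stood above the other 3 libraries in each of these 7. The run of 4 genes held LOC119649779, LOC119649780, LOC119649781 and LOC119649488. In edgeR's main fit all 4 were called in both comparisons (11.5% and 2.29% of all genes tested), LOC119649780 just under the threshold (edgeR adjusted p = 0.0453 and 0.0461). The median of their mean CPM was 223 at 6 h, 75.9 at 24 h and 6.83 at 72 h on AFB1 feed.

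The run of 5 genes consisted of long non-coding RNA genes by RefSeq's class, LOC119661200, LOC119661218, LOC119661073, LOC119661068 and LOC119647043. The median of their mean CPM was 1412 at 6 h, 1470 at 24 h and 168 at 72 h on AFB1 feed, and 340 at 6 h, 698 at 24 h and 99.2 at 72 h in control larvae. edgeR called all 5 higher at 24 h than at 72 h (11.5% of all genes tested) and 3 lower at 72 h than at 6 h (2.29%). LOC119661200 had 2405, 762, 2300 and 756 CPM in AFB1 6 h libraries, 1892, 2099, 1157 and 732 CPM in AFB1 24 h libraries and 312, 56.1, 86.9 and 217 CPM in AFB1 72 h libraries, with a log2 fold change of 3.27 for 24 h against 72 h (SE 0.76, edgeR adjusted p = 0.0139). The libraries of 6 and 24 h overlapped and all lay above those of 72 h. Not all 5 genes shared this course: LOC119661068 had 1018, 497, 204 and 360 CPM in AFB1 6 h libraries, 522, 395, 50.1 and 22.2 CPM in AFB1 24 h libraries and 41.9, 6.87, 18.9 and 52.8 CPM in AFB1 72 h libraries. Its libraries of 24 h lay partly below those of 6 h, and those of replicates 3 and 4 within the range of 72 h. By class, 143 of the 150 genes were protein-coding (95.3%, against 92.4% of all LOC genes listed), 6 were long non-coding RNA genes (4%, against 6.88%) and 1, LOC119661052, was a ribosomal RNA gene.

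LOC119648577, LOC119656034, LOC119649334 and LOC119657074 had 0 counts in all 4 AFB1 24 h libraries. LOC119648577 had 0.123, 0.499, 0 and 0.138 CPM in AFB1 6 h libraries and 0 in all of 24 h and 72 h. In control larvae it had 0, 0, 167 and 0 CPM at 6 h, 1.05, 74.3, 233 and 159 CPM at 24 h and 10.5, 11.3, 10.8 and 11.4 CPM at 72 h. On counts summed over libraries, with a floor of 3 counts for AFB1 24 h, it was at least 607-fold lower on AFB1 feed at 24 h. That floor covers counting error only, and control 24 h replicate 1 had no more than 1.05 CPM. The control 24 h side was chosen to be high, so the folds given here are descriptions. LOC119656034 and LOC119657074 were at least 90.2-fold and 36.7-fold lower on AFB1 feed at 24 h, where control libraries had 1.9 to 35.5 CPM and 3.09 to 11.1 CPM. Both had counts at 6 h mainly in AFB1 replicate 2, at 3.66 and 4.66 CPM, against at most 0.275 and 0.138 CPM in the other 3 AFB1 6 h libraries. LOC119649334 was at least 71.3-fold lower, but its control 24 h counts came from 2 libraries with 7.2 and 36.3 CPM and the others had 0. None of these 4 had enough counts to be tested.

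The 150 genes differed by which control 6 h library held their highest 6 h value. The 42 that were highest in replicate 3 had a median of mean log2(CPM + 1) of 2.78 at 6 h, 0.84 at 24 h and 0.54 at 72 h on AFB1 feed. The 68 that were highest in control 6 h replicate 1 had 6.02, 4.08 and 2.52 at these times, and the 38 highest in replicate 4 had 6.36, 5.22 and 2.28. In control 24 h libraries the 3 groups were close, at 6.11, 6.19 and 6.84. Of the 42 genes, 37 had their highest AFB1 6 h value in replicate 2, where 23 of the 68 and 28 of the 38 did. edgeR called 9 of the 42 higher at 24 h than at 72 h and 15 lower at 72 h than at 6 h on AFB1 feed, against 47 and 41 of the 68 and 14 and 15 of the 38. Enough counts to be tested were held by 28 of the 42, 67 of the 68 and 36 of the 38, and over all genes tested 11.5% and 2.29% were called. This division was made after the values were seen and was not tested. In AFB1 6 h replicate 2 as a whole, 89 of the 150 genes had the highest value of their group, and 33 lay at least 2 log2 units above each of the other 3 libraries.

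A few genes kept a different course on AFB1 feed, and they are named because they were the exceptions. LOC119654948, whose AFB1 values alone had a score of at least 1, had 37.6, 3.49, 471 and 30.7 CPM in AFB1 6 h libraries, 102, 127, 327 and 220 CPM in AFB1 24 h libraries and 2.31, 10.3, 11.6 and 16.4 CPM in AFB1 72 h libraries. Its log2 fold change was 0.43 for 24 h against 6 h (SE 1.15, edgeR adjusted p = 0.845). For 24 h against 72 h it was 4.63 (SE 1.33, edgeR adjusted p = 0.0288). Control 24 h libraries had 3.94, 52.7, 1.29 and 217 CPM of it. LOC119661368 was the gene whose AFB1 24 h libraries, at 189, 219, 201 and 153 CPM, all lay above the control 24 h libraries, at 49.4, 52.6, 26.5 and 132 CPM (4.08% of all genes). The 5 genes with their highest AFB1 mean at 72 h were LOC119647613, LOC119648850, LOC119651105, LOC119647511 and LOC119649334. LOC119647613 had 362, 63, 159 and 221 CPM in AFB1 72 h libraries, within the range of 94.6 to 328 CPM at 6 h but for replicates 1 and 2, and the other 4 had at most 1.55 CPM in any AFB1 72 h library.

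At the edge of the rule, the lowest scores kept were those of LOC119661052 and LOC119654758 (1.57 each), and the highest not kept were those of LOC119657055 and LOC119653055 (1.56 each). LOC119654758 had 121, 69.9, 161 and 109 CPM in AFB1 6 h libraries, 85.7, 59.8, 26.7 and 12.9 CPM in AFB1 24 h libraries and 22.3, 39.7, 74.7 and 22.1 CPM in AFB1 72 h libraries. LOC119657055, just outside, had 348 to 981 CPM in AFB1 6 h libraries, 88.2 to 470 CPM in AFB1 24 h libraries and 46.8 to 107 CPM in AFB1 72 h libraries, the same order of times as most of the 150.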

How the data were processed

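The values analysed are raw counts of reads per gene as deposited by the authors, in a single table with a column for each of 24 libraries of paired 150 bp reads. The submitters' processing notes name STAR. The counting tool, strand setting and genome build were not given in the sources used here, and the authors used DESeq2, per the series' design text. Without a known strand setting, reads of overlapping genes cannot be told apart. The 9 rows that name no gene (0.0206% to 0.0431% of counts) were left out, as was LOC119646963. The protocol mentions 5 pools per diet and time, of which 4 were analysed here. The genes, lists and tests were chosen with earlier results of these data known.

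CPM was computed from the counts left. The 12 AFB1 libraries were fitted together in edgeR 4.0.16 (R 4.3.3): filterByExpr, TMM, 1 coefficient per time, robust quasi-likelihood test, two-sided, Benjamini-Hochberg over 9480 genes, called at an adjusted p under 0.05 (9 degrees of freedom left for the spread, whose common coefficient of variation was 0.54). The fit was also run on simulated counts with known changes in AFB1 24 h, checked only for 24 h against 72 h. These counts had no shifts of whole libraries, so they cannot judge results that rest on few libraries. Same-numbered libraries of AFB1 6 h and 24 h deviated together (r of deviations from group means over 0.1 in 4 of 4 pairs, 0.119 to 0.467, against −0.375 to 0.239 in other pairs), so their numbers were taken to pair them. This rests on the data, since the labels do not say what a number shares. With 72 h, 1 of 4 and 0 of 4 pairs did. SE is the log2 fold change divided by the square root of F. Over all genes tested the median log2 fold change was −0.12, −0.10 and 0.02 for 24 h against 6 h, 24 h against 72 h and 72 h against 6 h. Floors cover counting error only. Alternatives used DESeq2 1.42.0, limma 3.58.1, other scalings, filters and libraries left out.

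Genes named were the 4 of highest score, the 2 on either side of the rule's limit, the 3 of highest control 24 h CPM, the 2 largest rises and falls called per comparison (mean log2 CPM of at least 1), the 4 of highest control 24 h CPM with 0 counts in AFB1 24 h libraries and the longest run of neighbours. No gene was called higher at 24 h in both comparisons, so none was named for it. Others were named after their values were seen. RefSeq's table (iHerIll2.2) gave class and neighbours for the LOC numbers, with no product names, sequences or proteins, so no product list or group of like proteins was formed. Its coordinates are not printed.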

Additional observations from a re-analysis of the deposited data

Results flagged for a closer look

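Among 162 groups of 4 libraries examined for the genes named by rule, 19 had a library whose gap to the nearest other exceeded 0.829 of the group's range in log2(CPM + 1). For normally distributed values chance gives about 1 in 20 groups. A group with counts in a single library always exceeds this limit, so the 19 cannot be read against that rate. AFB1 72 h replicate 2 stood above the other 3 libraries for LOC119648449 (7.34, others 0.93 to 1.35), LOC119648944 (4.75), LOC119648908 (5.49), LOC119649069 (5.02), LOC119649032 (4.06), LOC119647718 (3.94), LOC119649197 (2.15), LOC119649190 (1.10), LOC119649142 (0.99), LOC119649038 (0.58) and LOC119656034 (0.22). All of these but LOC119648449 and LOC119656034 lie in the run of 11 neighbours, so they may not be separate observations. In the same library LOC119649867 stood below the others (8.50, others 10.73 to 11.10), and it was also low in AFB1 24 h replicate 4 (11.50, others 13.62 to 13.85). LOC119648868 was low in AFB1 72 h replicate 4 (1.02, others 1.31 to 1.35).

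AFB1 6 h replicate 2 stood above the others for LOC119657074 (2.50) and LOC119656034 (2.22). In controls, LOC119648577 was at 7.39 in 6 h replicate 3 with 0 in the other 3, LOC119654758 was low in 72 h replicate 4 (5.26, others 5.44 to 5.46), and LOC119649334 had its only counts of the group in 72 h replicate 3 (0.09).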

How the results depend on the processing

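For 24 h against 6 h on AFB1 feed, 0 genes were called lower by edgeR, 9 by DESeq2 and 5 with all 24 libraries in the fit. The shares of all genes tested were 0%, 3.93% and 2.19%. Leaving out 1 library gave 0 to 15 lower and 0 to 1 higher, with 15 and 1 without AFB1 6 h replicate 3 (9.31% and 8.46% of all genes tested). Calls for 24 h against 72 h ran from 46 to 76 with 1 library left out (3.8% to 14.8% of all genes tested). Calls for 72 h against 6 h ran from 34 to 76 (0.752% to 2.61% of all genes tested). They were 47 in limma voom (1.52%) and 47 with no filter on low counts (1.04%). The median difference of 24 h minus 6 h, −1.45, ran from −1.84 to −0.89 with 1 library left out, and turned to 0.07 without AFB1 6 h replicate 2 and AFB1 24 h replicates 3 and 4, an alternative chosen after the data were seen. With those libraries out, 56 and 60 genes were called for 24 h against 72 h and 72 h against 6 h (2.82% and 2.23% of all genes tested). AFB1 minus control at 24 h was −0.79 without AFB1 24 h replicates 3 and 4. The cause of these shifts was not tested. With the replicate number as a block (replicate block), 0, 73 and 65 genes were called in the 3 comparisons (0%, 9.75% and 1.53% of all genes tested). With the block in the 8 libraries of 24 h and 6 h, added after the data were seen, 18 genes were called lower at 24 h (1.83%). The rule kept 121 to 148 of the 150 genes with 1 control library left out, 122 with a pseudocount of 0.1 CPM, 140 with TMM scaling, 147 with LOC119646963 kept and 147 with control 72 h libraries summed. Over 22 calls of named genes, 356 of 479 recomputations kept the call, 123 kept only the direction and 0 reversed. Without LOC119646963, AFB1 24 h replicates 3 and 4 had the fewest counts, 2097793 and 1711314.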
